A study of Mus musculus with 18 samples.

Results

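The 6 genes of the CCAAT/enhancer-binding protein (C/EBP) family were taken by symbol from a table of 34896 genes: *Cebpa*, *Cebpb*, *Cebpd*, *Cebpe*, *Cebpg* and *Cebpz*. All 6 were in the table and all 6 passed the filter of at least 1 TPM in at least 3 libraries, which left 13061 genes for testing. *Cebpb* passed it only through the preNeu and matNeu libraries, so that a difference from GMPs was built into its selection. TPM is a level per transcript length and per library total, and levels of different genes can be set side by side within a library.

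RNA-seq was done on 3 stages of neutrophil formation with 3 libraries each: granulocyte-monocyte progenitors (GMPs), pre-neutrophils (preNeu) and mature neutrophils (matNeu). All were sorted from the bone marrow of wild type C57BL/6 mice aged 6 to 12 weeks, GMPs as lineage-negative, SCA-negative cells positive for cKIT, CD16/32 and CD34. ChIP-seq for CHD4, the ATPase of the NuRD chromatin remodelling complex, came from GMPs of wild type and of *Gfi1*-/- mice of that strain and age range, and ChIP-seq for H3K4me2, a histone mark of active or poised promoters and enhancers, from wild type cells of the 3 stages, each with 1 library. *Gfi1*-/- mice lack the repressor GFI1 in every cell, not only in GMPs, and no RNA of these mice was used, so the loss of GFI1 was not checked here. Groups follow the sample titles, because a second label field gives another cell type for many samples, all 9 RNA-seq libraries among them.

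C/EBP factors bind DNA as homodimers or heterodimers through a basic region and a leucine zipper. C/EBPα is needed for the formation of GMPs, C/EBPε for the late steps of granulocyte formation and the secondary granules, and C/EBPβ drives granulopoiesis under infection and, with C/EBPδ, cytokine and acute-phase genes. C/EBPγ lacks an activation domain and acts mainly as a dimer partner. The product of *Cebpz* is a CCAAT-binding nucleolar protein without a leucine zipper of this kind, and it belongs to the list by name only.

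The marker genes of the sorted stages went with the titles. *Cd34* and *Kit*, which the GMP gate uses, summed to between 603 and 693 TPM in GMPs, 47.1 to 72.2 in preNeu cells and 3.18 to 6.24 in matNeu cells. The neutrophil markers *Ly6g*, *Cxcr2* and *Mmp8* summed to 13.8 to 20.4, 575 to 619 and 9327 to 11526 TPM in the same order. The B cell markers *Cd79a*, *Ms4a1* and *Ebf1* had higher values at the later stages. Their sum was 0.523 to 1.02 TPM in GMPs, 8.24 to 12.3 in preNeu cells and 26.3 to 52.8 in matNeu cells. *Ebf1* was listed at 0 in all 3 GMP libraries. In preNeu and in matNeu cells 3 of 3 were called higher than in GMPs, beside 14.7% and 22.8% of all genes. None of the 3 reached 1 TPM in a GMP library. They passed the filter through the later stages alone, which built in these calls against GMPs. The 4 monocyte and macrophage markers summed to 2691 to 3310, 1663 to 2213 and 1022 to 1515 TPM, a sum made up mostly of *Ly6c2*, and they did not move together. In matNeu cells against GMPs *Ly6c2* (−1.69) and *Cx3cr1* (−3.94) were called lower, and *Cd68* (2.02) and *Adgre1* (2.67) higher. The part of admixed cells in the levels of the C/EBP genes was not tested, and in sorted bulk cells a change in the share of cells and a change in RNA per cell cannot be told apart.

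The C/EBP gene with the highest level changed from stage to stage. In GMPs *Cebpz* led in 2 libraries and *Cebpe* in the other. In preNeu cells *Cebpe* was the highest of the 6 in 3 of 3 libraries, and in matNeu cells *Cebpd* was. *Cebpb* was the lowest in all 3 GMP libraries. The levels are plotted by library below, in the order in which the members are described.

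**Figure D1:**
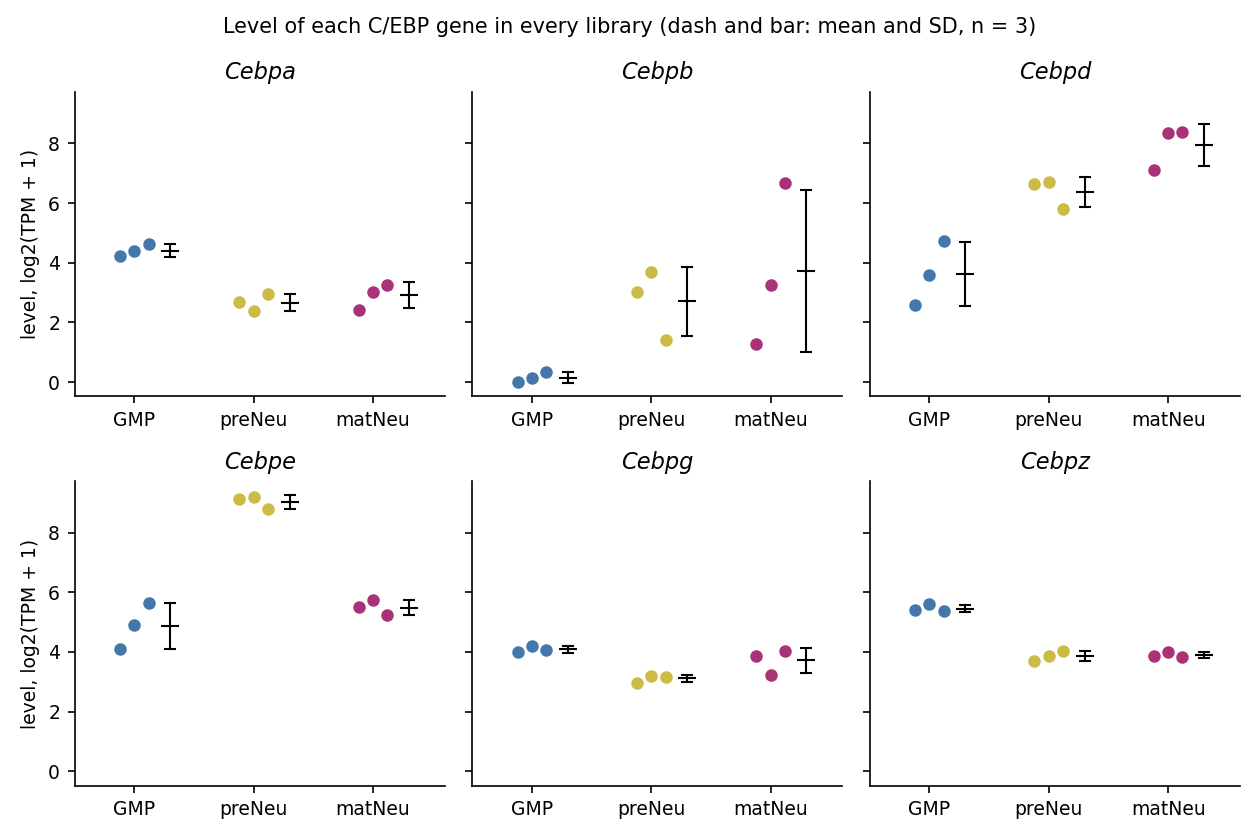
Level of each C/EBP gene, as log2(TPM + 1), in the 3 libraries of GMP, preNeu and matNeu cells (points), with the mean and SD of each stage (dash and bar). *Cebpe* stands highest in preNeu cells, *Cebpd* rises at each stage without overlap, and the 3 matNeu libraries of *Cebpb* lie from 1.45 to 100.1 TPM.

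*Cebpa* (ENSMUSG00000034957, GRCm38 chr7:35119293-35121928, plus strand) encodes the factor that commits progenitors to the granulocyte and monocyte line. Its level was 17.5, 20.1 and 23.6 TPM in the GMP libraries, 5.36, 4.24 and 6.68 in preNeu cells and 4.39, 7.16 and 8.65 in matNeu cells. Every GMP library lay above every library of the later stages, and the preNeu and matNeu libraries overlapped. On the log2(TPM + 1) scale, on which all changes below are given, *Cebpa* was lower in preNeu cells than in GMPs by −1.74 (95% interval −2.35 to −1.14, adjusted p = 3.1e-04, limma) and in matNeu cells by −1.50 (−2.11 to −0.89, adjusted p = 4.5e-04). Between matNeu and preNeu cells the difference was 0.24 (−0.37 to 0.85, adjusted p = 0.465). The interval reaches from a small decrease to a rise of 0.85.

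*Cebpe* (ENSMUSG00000052435, chr14:54710360-54712174, minus strand) encodes the factor of the secondary granule stage. Its level was 16.2, 28.9 and 48.5 TPM in GMPs, 551, 588 and 437 in preNeu cells and 44.6, 51.9 and 36.4 in matNeu cells. The preNeu libraries stood far above all others, and the matNeu libraries lay within or just above the range of the GMP libraries. With a mean of 525 ± 79.2 TPM (SD, n = 3), *Cebpe* was the gene of rank 205 in preNeu cells, against rank 5450 in GMPs and 2736 in matNeu cells. The change from GMPs to preNeu cells was 4.15 (3.45 to 4.85, adjusted p = 2.4e-06), and from preNeu to matNeu cells it was −3.54 (−4.24 to −2.84, adjusted p = 2.9e-06). MatNeu cells and GMPs differed by 0.61 (−0.10 to 1.31, adjusted p = 0.103). That difference was called without GMP library 3 (0.98, adjusted p = 0.0058) and under both other scalings of TPM.

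*Cebpd* (ENSMUSG00000071637, chr16:15887286-15891031, plus strand) encodes a factor that cytokines induce in myeloid cells. It was at 4.98, 11.0 and 25.5 TPM in GMPs, at 99.0, 102.7 and 54.5 in preNeu cells and at 138, 324 and 328 in matNeu cells. The 3 stages did not overlap, although the GMP libraries differed among themselves by 5.12 times. The change from GMPs was 2.75 in preNeu cells (1.62 to 3.88, adjusted p = 8.9e-04) and 4.31 in matNeu cells (3.18 to 5.44, adjusted p = 1.5e-05). From preNeu to matNeu cells it rose by 1.56 (0.44 to 2.69, adjusted p = 0.020). This last call was lost without preNeu library 3 (1.27, adjusted p = 0.0827), without matNeu library 2 (1.36, adjusted p = 0.0719) and without matNeu library 3 (1.35, adjusted p = 0.0700). *Spidr*, which overlaps *Cebpd* by 1808 bp on the opposite strand, was at 40.6 to 51.1 TPM in GMPs. It was at 39.8 to 47.4 in preNeu cells and 66.8 to 81.7 in matNeu cells (0.69 against GMPs, adjusted p = 0.0014). Reads of this overlap can be told apart only by strand, and its use in the quantification is not given in the sources used here.

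*Cebpb* (ENSMUSG00000056501, chr2:167688915-167690418, plus strand), the factor of emergency granulopoiesis, was listed at 0, 0.0967 and 0.263 TPM in GMPs. It was at 7.14, 11.8 and 1.66 TPM in preNeu cells and at 1.45, 8.49 and 100.1 in matNeu cells. All libraries of the later stages lay above those of GMPs, while the matNeu libraries differed by 69.0 times and covered the whole range of the preNeu libraries. The change from GMPs to matNeu cells was 3.58 (1.18 to 5.98, adjusted p = 0.011). It was 2.11 to 4.80 when 1 library was left out and 5.84 with a pseudocount of 0.1. Since the filter chose *Cebpb* by the later stages, these tests against GMPs are a description of its values and no support for a rise. From GMPs to preNeu cells the value was 2.55 (0.15 to 4.95), which missed the threshold (adjusted p = 0.0651). It passed the threshold without matNeu library 3 (adjusted p = 0.0060), preNeu library 3 (3.19, adjusted p = 0.0483) or matNeu library 1 (adjusted p = 0.0217), with a pseudocount of 0.1 (4.79, adjusted p = 0.013), with median centring (3.18, adjusted p = 0.032) and when only these 2 cell types were fitted (adjusted p = 0.0066). The matNeu and preNeu values differed by 1.03 (−1.37 to 3.43, adjusted p = 0.433), and by −0.43 without matNeu library 3. That library, with 100.1 TPM of *Cebpb*, also held the highest sum of B cell markers, 52.8 TPM against 26.3 and 34.7 in the other matNeu libraries. Of its monocyte and macrophage markers, *Ly6c2* was the lowest of the 3 libraries at 676 TPM against 972 and 1161, *Adgre1* (97.0 against 75.7 and 78.7) and *Cx3cr1* (1.56 against 0.934 and 0.0676) the highest, and *Cd68* lay in between. The part of other cells in this *Cebpb* value was not tested. *Tmem189*, which overlaps *Cebpb* by 908 bp on the opposite strand, rose from 6.72 to 8.91 TPM in GMPs to 23.8 to 35.9 in matNeu cells. Whether strand was used in the quantification is not given in the sources used here, and reads of the overlap can be told apart only with it.

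*Cebpg* (ENSMUSG00000056216, chr7:35046422-35056573, minus strand) encodes the dimer partner. Its level was 14.9, 17.6 and 15.7 TPM in GMPs, 6.88, 8.24 and 7.94 in preNeu cells and 13.7, 8.46 and 15.5 in matNeu cells. Each preNeu library was below every other library. The change from GMPs to preNeu cells was −0.97 (−1.51 to −0.44, adjusted p = 0.0054). This call was lost with upper-quartile scaling (−0.52, adjusted p = 0.0789) and with median centring (−0.34, adjusted p = 0.214). MatNeu cells differed from GMPs by −0.37 (−0.90 to 0.17, adjusted p = 0.188), a value that turned to 0.48 and 1.03 under the other scalings. From preNeu to matNeu cells it rose by 0.61 (0.07 to 1.14, adjusted p = 0.0489), a call that was lost in 8 of the 9 fits that left out a library, with adjusted p up to 0.162.

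*Cebpz* (ENSMUSG00000024081, chr17:78919006-78937066, minus strand) was at 41.6, 47.5 and 40.002 TPM in GMPs, at 11.8, 13.7 and 15.4 in preNeu cells and at 13.5, 15.2 and 13.3 in matNeu cells. The GMP libraries stood apart, and the libraries of the later stages overlapped. The changes from GMPs were −1.59 in preNeu cells (−1.98 to −1.21, adjusted p = 2.6e-05) and −1.55 in matNeu cells (−1.94 to −1.17, adjusted p = 9.8e-06), with 0.04 between the later stages (−0.35 to 0.42, adjusted p = 0.868). This last difference was called under both other scalings (0.44, adjusted p = 0.036 with upper-quartile scaling, and 0.80, adjusted p = 0.0013 with median centring). *Ndufaf7*, a gene of mitochondrial complex I assembly that starts 70 bp away on the opposite strand, was also lower than in GMPs, with −1.21 in preNeu cells (adjusted p = 3.2e-04) and −0.91 in matNeu cells (adjusted p = 0.0013). *Cebpzos*, which overlaps *Cebpz* by 1301 bp on the opposite strand, went from 19.7, 11.8 and 13.5 TPM in GMPs to 9.39, 12.2 and 6.18 in matNeu cells (−0.66, adjusted p = 0.048).

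Counted over the family, 4 of the 6 members were called between matNeu cells and GMPs, 2 higher and 2 lower, and 1 of the higher was *Cebpb*, for which the filter had built in the difference. Of all 13061 genes tested, 22.8% were called higher and 54.1% lower in this comparison, with a median change of −0.92. Between preNeu cells and GMPs 5 members were called, 2 higher and 3 lower, beside 14.7% higher and 44.3% lower among all genes and a median of −0.52. Between matNeu and preNeu cells 3 members were called, 2 higher and 1 lower, beside 22.9% higher and 39.8% lower and a median of −0.32. In all, 76.9%, 59% and 62.8% of genes were called in the 3 comparisons, so that a change of a member is in itself nothing particular. The 10 highest genes of a library held 9.15 to 9.78% of its TPM in GMPs, 24.1 to 28.3% in preNeu cells and 12.7 to 15.9% in matNeu cells. Unlike shares were thus left to all other genes. The median shift depends on how TPM is scaled: with upper-quartile scaling the medians were −0.18, −0.11 and −0.03, and with median centring 0.47, 0.11 and 0.45. Under median centring the members called between matNeu cells and GMPs were 4 higher and 0 lower, since *Cebpa* (−0.11, adjusted p = 0.733) and *Cebpz* (−0.16, adjusted p = 0.388) were no longer called and *Cebpe* and *Cebpg* were, while all genes split into 46.1% higher and 31.1% lower. With upper-quartile scaling the members split 3 to 2, and all genes into 34.8% higher and 41.5% lower. In preNeu cells against GMPs the members split 3 higher to 2 lower with median centring and 2 to 2 with upper-quartile scaling, and all genes split 29.3% to 24.2% and 22.6% to 28.8%. MatNeu against preNeu cells gave 4 higher and 1 lower with median centring (all genes 42.3% and 24.9%) and 3 and 1 with upper-quartile scaling (31.1% and 33%). The decreases of *Cebpa* and *Cebpz* in matNeu cells against GMPs were thus called with TPM as deposited and with upper-quartile scaling (−0.67 and −0.68), not with median centring. Relative to the median change of all genes, itself −0.92, they were −0.58 and −0.63. The rise of *Cebpd* from GMPs to matNeu cells, the rise of *Cebpe* in preNeu cells and its later fall were called under each scaling.

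**Figure D2:**
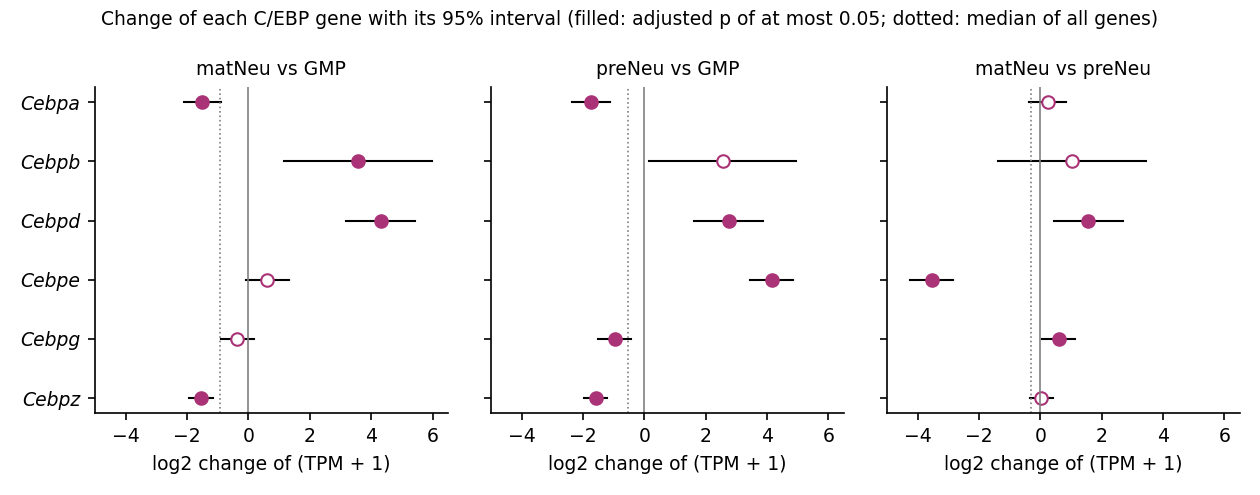
Change of each C/EBP gene between stages on the log2(TPM + 1) scale with its 95% interval from the limma fit. Filled points had an adjusted p of at most 0.05, the solid line marks 0 and the dotted line the median change of all 13061 genes. The widest intervals are those of *Cebpb*, and *Cebpe* is the only member with a change of 4.15 followed by one of −3.54.

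Because leucine-zipper factors form dimers with each other, their make-up within each library was described from the TPM of the 5 such members. Their sum was 53.5 to 114 TPM in GMPs, 507 to 715 in preNeu cells and 202 to 489 in matNeu cells. In GMPs no member held a majority: *Cebpe* made up 30.3 to 42.8%, *Cebpa* 20.8 to 32.7%, *Cebpg* 13.8 to 27.7% and *Cebpd* 9.29 to 22.5%. In preNeu cells *Cebpe* alone made up 82.3 to 86.0% and *Cebpd* 10.7 to 14.8%. MatNeu cells turned to *Cebpd*, with 67.2 to 81.0%, and *Cebpe* held 7.44 to 22.04%. *Cebpb* was 0.718% and 2.12% in matNeu libraries 1 and 2 and 20.5% in library 3. The ratio of *Cebpe* to *Cebpa* was 0.925, 1.44 and 2.06 in GMPs, 103, 139 and 65.4 in preNeu cells and 10.2, 7.24 and 4.21 in matNeu cells, so the 3 stages did not overlap in it. RNA shares do not give the shares of protein or of dimers.

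**Figure D3:**
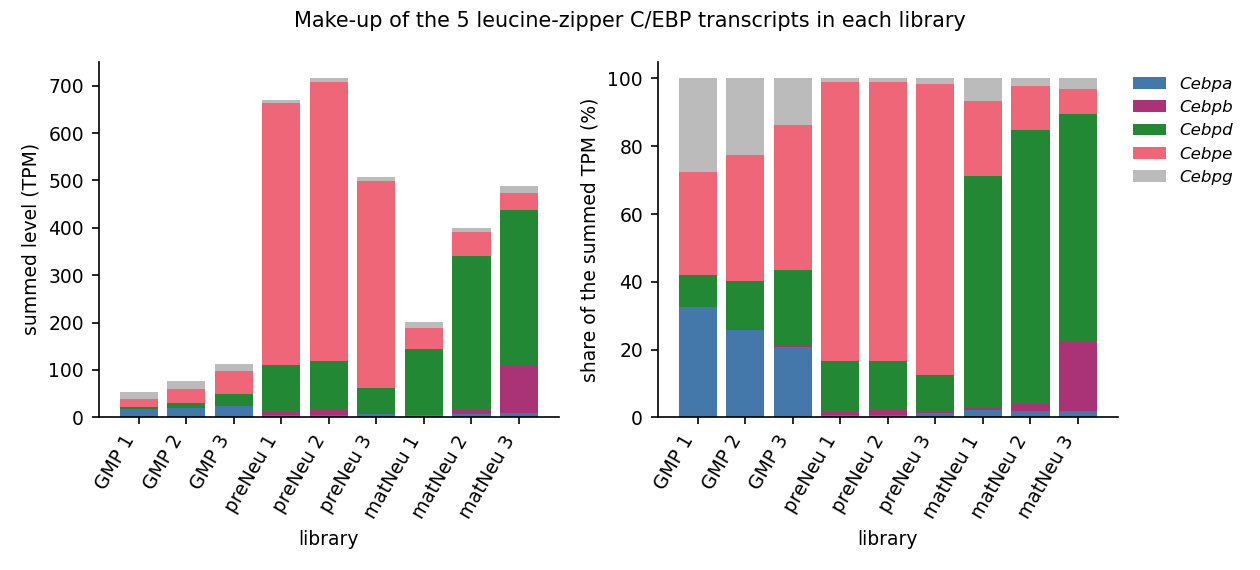
Summed TPM of the 5 leucine-zipper C/EBP genes in each library (left) and the share of each gene in that sum (right). *Cebpe* fills 82.3 to 86.0% of the preNeu bars and *Cebpd* 67.2 to 81.0% of the matNeu bars.

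For each member, the genes with the most similar pattern over the 9 libraries were taken from 8213 tested genes with a mean of at least 10 TPM, by Pearson's r of log2(TPM + 1). These values describe 9 libraries that share 3 stages. *Cebpa* ran closest to *Tmem109* (r = 0.981), *Mef2c* (0.977) and *Txndc5* (0.9748), all highest in GMPs. *Cebpe* was closest to *Nxt2* (0.989), *Tst* (0.985) and *Gca* (0.982), of which *Gca*, which encodes grancalcin, a calcium-binding protein of neutrophils, went from 14.8 TPM in GMPs to 327 in preNeu and 26.6 in matNeu cells on average. For *Cebpd* they were *Slc27a4* (0.989), *Orai1* (0.985), the pore of store-operated calcium entry, and *Map7d1* (0.981). *Cebpb* had the loosest matches, *Sntb2* (0.931), *Ogfrl1* (0.904) and *Slain2* (0.890). The nearest to *Cebpg* were *Ighj2* (0.972), *Gss* (0.949) and *Gigyf2* (0.949), and to *Cebpz* *Scpep1* (0.994), *Ifngr1* (0.993) and *Ctsc* (0.993).

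Genes known to act with C/EBP factors or to be their targets were then followed in 4 lists. Of 12 partners and regulators 11 were tested, and 6 were called higher and 5 lower in matNeu cells than in GMPs, beside 22.8% and 54.1% of all genes, with a median of 1.11 against −0.92 for all genes. *Trib3*, among the higher, passed the filter only with the matNeu libraries. *Ddit3*, which encodes the C/EBP homologous protein CHOP, was at 20.2, 22.3 and 19.5 TPM in GMPs, at 15.1, 14.6 and 7.08 in preNeu cells and at 125, 111 and 102 in matNeu cells. *Trib1*, an adaptor that brings C/EBPα to the ubiquitin ligase COP1, rose from 1.06 to 1.32 TPM in GMPs to 6.21 to 8.66 at the preNeu stage and 91.0 to 172 at the matNeu stage, and *Rfwd2*, which encodes COP1, from 28.8 to 44.6 TPM in GMPs to 60.9 to 94.9 in matNeu cells. Both were called in matNeu cells (5.84, adjusted p = 6.3e-09, and 1.11, adjusted p = 0.0015). *Spi1*, which encodes PU.1, rose at each stage to 1937 to 2183 TPM. *Irf8*, a factor of the monocyte line, fell from between 483 and 548 TPM in GMPs to 10.8 to 13.9 in preNeu cells. *Gfi1* was at 5.88 to 17.5 TPM in GMPs, at 20.1 to 29.2 in preNeu cells and at 0 to 0.145 in matNeu cells. By western blot, the authors reported more GFI1 protein in matNeu than in preNeu cells, so this RNA does not give the level of the protein.

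Of 8 early granule and receptor genes, 4 were called lower and 3 higher in matNeu cells than in GMPs, beside 54.1% and 22.8% of all genes. The lower ones were the primary granule genes *Mpo*, *Elane*, *Prtn3* and *Ctsg*, of which *Mpo* went from 31476 to 33396 TPM in GMPs to 4194 to 5938 at the preNeu stage and 1.87 to 7.65 at the matNeu stage. The higher ones were the receptor genes *Csf3r*, *Csf2ra* and *Il6ra*, and *Csf3r*, which encodes the G-CSF receptor and is a C/EBPα target, rose from 131 to 142 TPM to 3340 to 4336. All 6 C/EBPε-dependent granule genes were called higher than in GMPs in preNeu and in matNeu cells, with medians of 10.66 and 7.64, beside 14.7% and 22.8% of all genes. *Camp* and *Mmp9* reached 1 TPM in fewer than 3 GMP libraries and passed the filter with the later stages, so the count is in part set by it. Between preNeu and matNeu cells they parted: *Ltf*, *Camp*, *Ngp* and *Lcn2* were called lower in matNeu cells, as *Cebpe* was, and the metalloproteinase genes *Mmp8* and *Mmp9* higher. *Ltf*, which encodes lactoferrin, was at 4.22 to 7.94 TPM in GMPs, 23924 to 27605 in preNeu cells and 400.2 to 578 in matNeu cells, whereas *Mmp9* went from 0.852 to 1.30 over 359 to 459 to 6334 to 6688 TPM.

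Of 7 acute-phase and cytokine targets of C/EBPβ and C/EBPδ, 6 were tested and all 6 were called higher in matNeu cells than in GMPs, with a median of 3.29, beside 22.8% of all genes. *Il1b*, *Ptgs2* and *Saa3* passed the filter only with the matNeu libraries, and *Il6*, which was not high there, did not pass it, so the filter in part fixed this count. In preNeu cells 2 were called higher, beside 14.7% of all genes, *Hp* (2.43, adjusted p = 2.8e-07), which encodes haptoglobin, and *Tnf* (2.69, adjusted p = 5.4e-06). Between matNeu and preNeu cells 5 were called higher, beside 22.9% of all genes, with *Tnf* at 0.11 (adjusted p = 0.703). *Il1b* was at 0.577 to 2.36 TPM in GMPs, at 0.119 to 0.526 in preNeu cells and at 1342 to 2236 in matNeu cells, and *Ptgs2*, which encodes cyclooxygenase 2, was listed at 0 in 2 GMP libraries and lay between 222 and 423 TPM in matNeu cells. *Il6* was at most at 2.31 TPM. These lists were chosen from knowledge of the factors, and no link between a factor and a gene was tested.

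**Figure D4:**
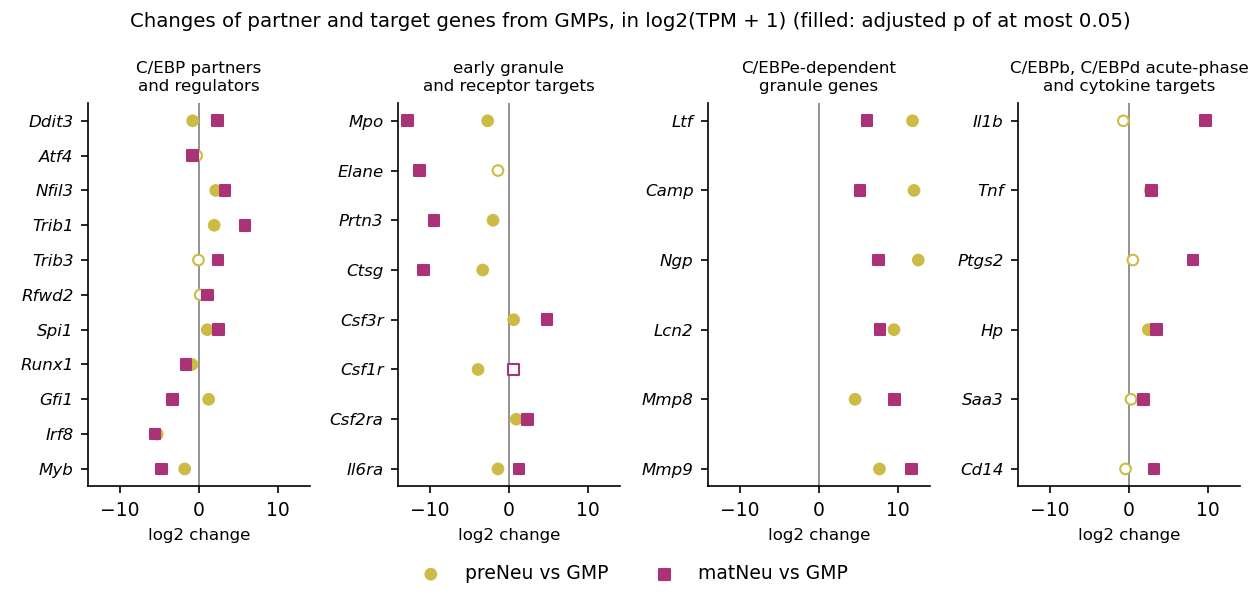
Changes of the tested partner and target genes from GMPs to preNeu cells (circles) and to matNeu cells (squares) on the log2(TPM + 1) scale, filled where the adjusted p was at most 0.05. The 6 C/EBPε-dependent granule genes lie to the right of 0 at both stages, and the primary granule genes *Mpo*, *Elane*, *Prtn3* and *Ctsg* lie far to the left in matNeu cells.

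CHD4 peaks of WT GMPs were found at 3 of the 6 members, counting the gene body and 10 kb on either side: 3 at *Cebpd*, 2 at *Cebpe* and 3 at *Cebpz*. None lay at *Cebpa*, *Cebpb* or *Cebpg*. Of 21938 protein-coding genes 32.4% had such a peak, and of the 11334 with at least 1 TPM in GMPs 42.8%, so 3 of 6 is near the level of expressed genes. The nearest CHD4 peak of *Cebpa* was 20.3 kb upstream of its start site, with a fold enrichment of 8.997 over background, the same peak was nearest to *Cebpg*, and for *Cebpb* the nearest lay 116 kb away. Among the members with a peak, *Cebpd* and *Cebpe* rose from GMPs to preNeu cells and *Cebpz* fell, and *Cebpb*, with a higher level in the later stages, had none.

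The 8 peaks differed in height. At *Cebpd*, a peak over the start site (chr16:15887034-15887476) had a fold enrichment of 3.63, at percentile 1.03 of its list, and 2 in the annotated 3′ UTR of *Cebpd*, which is also an intron of *Spidr* (chr16:15889975-15890343 and chr16:15890586-15890912), had 12.2 and 7.99. At *Cebpe*, a peak over the start site and the 5′ UTR (chr14:54712101-54712278) had 5.58 and one upstream, with its summit at −842 bp from the start (chr14:54712946-54713268) had 5.27, at percentiles 23.7 and 18.5. The highest had its summit at −2174 bp from the *Cebpz* start, in an intron of *Ndufaf7* (chr17:78938887-78939479), with 19.6 at percentile 88.4. The others near *Cebpz* lay beyond its end, in an intron of *Cebpzos* (chr17:78917593-78918210, 10.5) and at the *Cebpzos* promoter and UTR (chr17:78916620-78916872, 4.92).

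No CHD4 peak of *Gfi1*-/- GMPs lay in these windows, and 0 of the 8 peaks was kept. Over the genome 10.2% of protein-coding genes had a CHD4 peak in *Gfi1*-/- GMPs, 18.5% of all CHD4 peaks of WT GMPs were overlapped by one, and 31.2% of the genes with a WT peak kept at least 1. The list of *Gfi1*-/- GMPs held 7316 peaks against 35790, and from decile 2 upward the share kept rose with enrichment, from 0.643% in decile 2 of enrichment of the WT list to 92.9% in decile 10. In the deciles to which the 8 peaks belong, the kept share was 49.9% for the peak upstream of *Cebpz*, 20.7% and 4.22% for those in the *Cebpd* 3′ UTR, 8.63% for the one in *Cebpzos*, and between 0.643% and 3.91% for the other 4. With 1 library per genotype and no read depth, the loss at these genes and the shorter list cannot be told apart.

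The sequences below are those of the CHD4 peaks outside UTRs and not over a start site, read around the summits. The peak upstream of *Cebpe* still lies in its promoter, as defined below. Printed after them are the 250 bases before the start of *Cebpa* and *Cebpb*, members without a CHD4 peak. All these sequences show the letters that the motif search found. The 4 cores were searched on both strands in 300 bp around the CHD4 summits, TTGCNNAA for C/EBP, AAATCA for GFI1, GAGGAAGT for SPI1 and TGTGGT for RUNX, and matches are in capitals.
*Cebpe* upstream CHD4 peak, chr14:54712946-54713165, plus strand: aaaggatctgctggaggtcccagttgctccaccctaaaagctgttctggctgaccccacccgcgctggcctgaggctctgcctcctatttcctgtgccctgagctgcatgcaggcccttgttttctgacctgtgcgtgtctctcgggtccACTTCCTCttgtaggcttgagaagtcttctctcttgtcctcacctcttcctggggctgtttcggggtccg
*Cebpzos* intron CHD4 peak, chr17:78917831-78918130, plus strand: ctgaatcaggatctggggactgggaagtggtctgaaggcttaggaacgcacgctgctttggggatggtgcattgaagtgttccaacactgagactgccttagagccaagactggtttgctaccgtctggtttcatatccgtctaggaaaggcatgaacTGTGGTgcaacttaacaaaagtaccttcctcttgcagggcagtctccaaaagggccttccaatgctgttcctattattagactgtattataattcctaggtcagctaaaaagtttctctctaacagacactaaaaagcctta
*Ndufaf7* intron CHD4 peak upstream of *Cebpz*, chr17:78939090-78939389, plus strand: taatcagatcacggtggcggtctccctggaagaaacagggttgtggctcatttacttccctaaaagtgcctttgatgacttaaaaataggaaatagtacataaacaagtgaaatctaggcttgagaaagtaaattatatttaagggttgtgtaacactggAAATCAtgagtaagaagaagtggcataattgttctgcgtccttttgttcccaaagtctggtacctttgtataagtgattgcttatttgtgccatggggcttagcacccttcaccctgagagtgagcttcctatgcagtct
*Cebpa* upstream, chr7:35119043-35119292, plus strand: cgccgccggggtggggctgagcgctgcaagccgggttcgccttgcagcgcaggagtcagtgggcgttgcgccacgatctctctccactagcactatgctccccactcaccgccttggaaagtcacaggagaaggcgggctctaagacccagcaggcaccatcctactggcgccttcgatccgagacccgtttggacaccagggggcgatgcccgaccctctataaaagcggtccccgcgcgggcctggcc
*Cebpb* upstream, chr2:167688665-167688914, plus strand: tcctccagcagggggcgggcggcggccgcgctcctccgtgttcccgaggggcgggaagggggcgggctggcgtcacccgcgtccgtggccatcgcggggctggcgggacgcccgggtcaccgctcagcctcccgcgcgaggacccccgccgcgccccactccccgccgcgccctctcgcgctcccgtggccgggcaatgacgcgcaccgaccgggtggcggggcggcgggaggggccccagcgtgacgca

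The *Cebpe* peak held a SPI1 core on the minus strand, the *Cebpzos* peak a RUNX core and the *Ndufaf7* peak a GFI1 core, while the stretches before *Cebpa* and *Cebpb* held none of the 4. Those stretches are rich in G and C, 66.4% and 81.6%, against 58.2%, 45.7% and 40.7% in the 3 peaks in the order printed. Of the 8 summit windows at members, 3 held the SPI1 core, 1 the GFI1 core, 1 the RUNX core and 0 the C/EBP core, no window held more than 1 match, and no matches overlapped. Among the 35728 summit windows of the whole WT list the shares were 13.3% for SPI1, 18.9% for GFI1, 30.4% for RUNX and 22.4% for C/EBP. Among 32851 RefSeq promoters of GRCm38.p6, which span 250 bases before to 50 after a start, the shares were 3.20%, 13.997%, 16.8% and 10.8%. Of the 6 members 3 (*Cebpa*, *Cebpb* and *Cebpg*) had an entry in that table, and the upstream stretches come from it.

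H3K4me2 covered the start site of all 6 members at every stage. Among protein-coding genes of at least 1 TPM at the stage this held for 76.2% in GMPs, 89.8% in preNeu cells and 85.5% in matNeu cells. At *Cebpe*, the start-site peak of GMPs spanned 5492 bp with a fold enrichment of 3.02. Of the start-site peaks of that stage 7.08% were lower and 94.6% narrower, so it was already among the wide ones. In preNeu cells 1 peak of 14434 bp (chr14:54701262-54715695, fold enrichment 16.2) ran from upstream of the gene to beyond a separate GMP peak about 5.53 kb downstream of the start, and 97.8% of start-site peaks were lower and 97.7% narrower. In matNeu cells it was 12383 bp wide with 9.86, and 75.8% were lower and 96.4% narrower. The peak thus stayed wide in matNeu cells, where the level of *Cebpe* was 44.3 ± 7.75 TPM (SD, n = 3).

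Around *Cebpa* the start-site peak was wider in bp at the later stages, where the RNA was lower, but it did not gain on other start sites. In GMP, preNeu and matNeu cells 98.5%, 95.3% and 95.7% of start-site peaks were narrower, and 90.3%, 83.4% and 76.4% were lower. Its start-site peak was 7616 bp in GMPs (fold enrichment 4.31), 11382 bp in preNeu cells (12.8) and 11493 bp in matNeu cells (9.90), and the wider peaks took in a separate GMP peak 7.79 kb downstream of the start. The *Cebpb* start lay in a peak of 5804 bp in GMPs, where its RNA was at most 0.263 TPM, and in peaks of 7140 and 7539 bp later. The GMP peak also covered the start of *Tmem189*, 907 bp away, which was at 6.72 to 8.91 TPM in GMPs. The peak cannot be assigned to 1 of the 2 genes. Downstream of *Cebpb*, 1 peak of 5809 bp in preNeu cells, with its middle 11.5 kb from the start, spanned 2 separate peaks of GMPs (225 and 605 bp) and 2 of matNeu cells (992 and 1979 bp). At *Cebpd* the start-site peak grew from 4462 to 6072 and 7099 bp, and a peak upstream, with its middle at −8.42 and −8.47 kb from the start, was listed in preNeu cells (fold enrichment 8.81) and matNeu cells (3.91) and not in GMPs. *Cebpg* and *Cebpz* had start-site peaks of 2561 and 2005 bp in GMPs, near the median of 2383 bp for all start sites, and these were 4759 and 5374 bp in preNeu cells and 3555 and 2506 bp in matNeu cells. In the order GMP, preNeu and matNeu, 95.7%, 86.8% and 90.3% of start-site peaks were narrower than that of *Cebpb*. For *Cebpd* these shares were 89.7%, 80.9% and 88.7%, for *Cebpg* 56.3%, 69.3% and 63.9%, and for *Cebpz* 35.1%, 75.5% and 40.7%.

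Over the 6 windows together, H3K4me2 peaks covered 22.1% of 157914 bp in GMPs, 37.5% in preNeu cells and 32.6% in matNeu cells. The medians over all protein-coding genes of the table were 3.82%, 6.42% and 4.80%. The former are pooled shares, the latter medians of shares per gene, over genes of any length and level. Their sizes are thus unlike measures and give no excess at the members. The lists themselves differed: the median fold enrichment was 2.89 in GMPs, 4.55 in preNeu and 3.78 in matNeu cells, and the median start-site peak was 2383, 3530 and 2827 bp wide. The members therefore moved in the direction in which the whole lists moved, and with 1 library a stage there was no test. With only peaks of a −log10 q-value of 5 or more, the covered share in GMPs dropped to 6.09%, while it was 37.0% and 31.4% in the later stages. The ATAC-seq list, a map of open chromatin deposited identically for preNeu and matNeu cells, had a peak over the start of all 6 members. The share of all genes with such a peak was not computed, so this count shows nothing particular to the members. Of its peaks, 1 lay in the *Ndufaf7* intron (chr17:78939101-78939285) within the highest CHD4 peak near *Cebpz*.

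**Figure D5:**
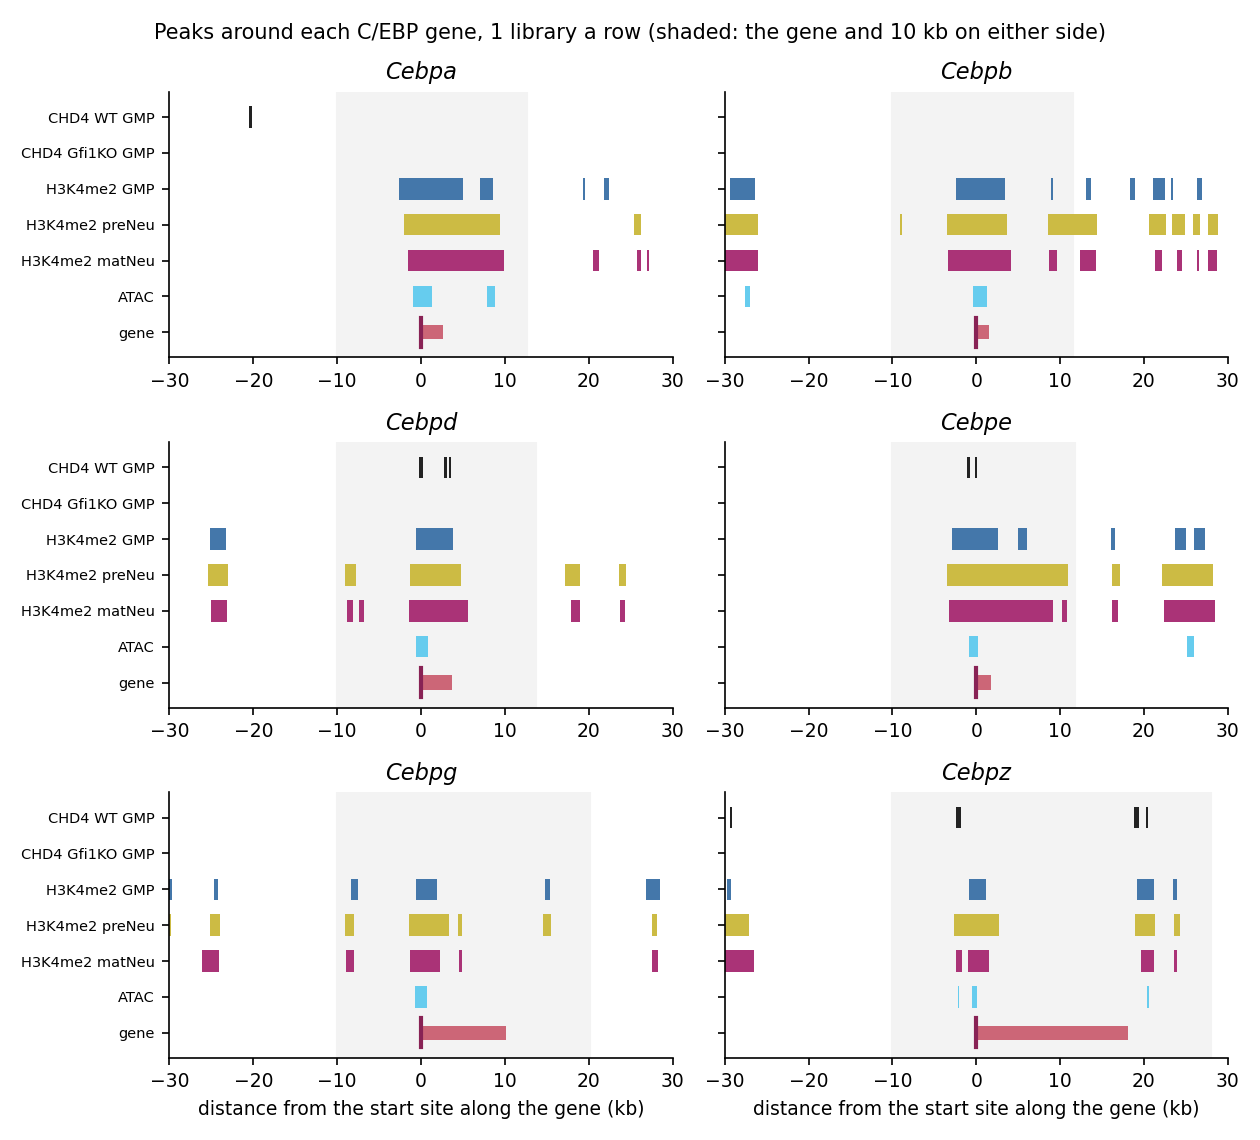
Peaks around each C/EBP gene by distance from its start site along the direction of the gene, in kb, with 1 peak list in each row (CHD4 in WT and *Gfi1*-/- GMPs, written Gfi1KO, H3K4me2 at 3 stages and ATAC-seq) and the gene at the bottom. The shaded area is the gene with 10 kb on either side. CHD4 peaks of WT GMPs appear in it at *Cebpd*, *Cebpe* and *Cebpz*, the row of *Gfi1*-/- GMPs is empty, and the H3K4me2 peak at *Cebpe* is widest in preNeu cells.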

How the data were processed

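RNA-seq, CHD4 and H3K4me2 ChIP-seq and ATAC-seq of sorted mouse bone marrow cells were used, with 3 RNA-seq libraries a stage and 1 library for every other group. The authors deposited TPM per gene and library; the methods describe Tophat, HTSeq and a stranded kit, while the submitters' processing notes name kallisto 0.44.0, BWA 0.7.17 and MACS2 2.1.0, and the tool behind TPM is not given in the sources used here. TPM keeps no depth, and no count test was run. The authors deposited 1 peak list per library on GRCm38 (mm10) with the fold enrichment of each peak, a linear ratio to background, and its −log10 q-value. The lists for H3K4me3 and GFI1 reach past the GRCm38 chromosome ends with part of their peaks (2179 of 20218 and 3105 of 26963) and were not used. No sample column was left unused (0 columns).

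Stages were compared with limma (version 3.58.1, R version 4.3.3), which was run on log2(TPM + 1) in 1 fit over 9 libraries with a variance trend. Genes entered the fit when 3 or more libraries reached 1 TPM, and the Benjamini-Hochberg adjustment ran over all 13061 of them, with a threshold of 0.05. The fit was tested on simulated data. Whether the libraries of a stage came from separate animals is not given in the sources used here, so that p-values measure the spread between these libraries, which may be technical, and 3 libraries against 3 cannot give an exact permutation p under 0.1. Peaks were assigned to a member when they lay in the gene (GENCODE M21) or within 10 kb of it, a promoter ran from 2 kb before to 500 bp after a start, and a CHD4 peak was kept when a *Gfi1*-/- peak overlapped it by at least 1 bp. Fold enrichment was compared only within a list. Python 3.11.15, pandas 2.3.3, samtools 1.23.1 and matplotlib 3.10.9 were used.

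The members, the lists and the tests were chosen with earlier results of these data known. Named were the 6 members, the genes of 4 lists of partners and targets, genes that overlap a member or start within 10 kb of it, the 3 genes most alike to each member, and every CHD4 peak of the windows. Cell type markers were the GMP gate, neutrophil, B cell, T and NK cell, erythroid, megakaryocyte, eosinophil and basophil, and monocyte and macrophage lists, of which 1 gene is not reported here. Alternatives were a pseudocount of 0.1, other filters, 2 other scalings, a fit of the compared stages alone, a replicate block, no variance trend, leaving out each library, a −log10 q-value of 5 or more, windows of 5 and 50 kb, an overlap of 50% of the shorter peak, summits within 200 bp and equal numbers of H3K4me2 peaks.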

Additional observations from a re-analysis of the deposited data

How the results depend on the processing

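Each of the 18 member changes was fitted under 17 alternatives. Of these 306 fits, 269 kept direction and side of the threshold, 20 lost a call, 12 gained one and 5 turned direction. Of the changes, 7 kept both throughout: *Cebpa*, *Cebpd*, *Cebpe* and *Cebpz* in preNeu cells against GMPs, *Cebpb*, whose difference the filter built in, and *Cebpd* in matNeu cells against GMPs, and *Cebpe* in matNeu against preNeu cells. The reversals were *Cebpg* in matNeu cells against GMPs (0.48 with upper-quartile scaling, 1.03 with median centring), *Cebpz* in matNeu against preNeu cells (−0.053 without preNeu library 1, −0.017 without matNeu library 2) and *Cebpb* in the same comparison (−0.43 without matNeu library 3). Leaving out 1 library gave −0.053 to 0.123 for this *Cebpz* change and −0.43 to 2.25 for this *Cebpb* change. The number of members called in matNeu against preNeu cells was 3, but 1 with no filter on TPM, where more genes were tested, and 5 with median centring. Leaving out 1 library gave 1 to 2 there, 4 to 5 in matNeu cells against GMPs and 5 to 6 in preNeu cells against GMPs. The lowest value, 1, came without preNeu library 3 and without matNeu library 3, and the cause was not tested. Same-numbered libraries did not deviate together (correlations −0.04 to 0.12). Whether they shared an animal or a sort is not given in the sources used here, and these correlations cannot show it. With the replicate block the members called were 4, 5 and 2, and the call lost was *Cebpg* in matNeu against preNeu cells (0.61, adjusted p = 0.0705).

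Within 50 kb of the members there were 13 CHD4 peaks of WT GMPs instead of 8, and 0 was kept in *Gfi1*-/- GMPs. The other alternatives for kept peaks could only return 0, since no *Gfi1*-/- peak lay within 10 kb of a member. H3K4me2 covered 9.998%, 18.8% and 16.2% of the windows of 50 kb in GMP, preNeu and matNeu cells. In the windows of 10 kb the share in GMPs was 6.09% instead of 22.1% when only peaks with a −log10 q-value of 5 or more were taken. The order of the stages was kept under all 4 alternatives. Depth is unknown for every library and limits what an absent peak or a TPM of 0 can show.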

Other observations

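The remaining cell type markers moved as follows, as values with no explanation. The 4 eosinophil and basophil markers summed to 938 to 1182 TPM in GMPs, 90.3 to 141 in preNeu cells and 33.6 to 50.0 in matNeu cells. They did not move together. *Epx*, *Prg2* and *Mcpt8* had means of 0, 0.211 and 1.18 TPM in matNeu cells. *Siglecf* made up most of the matNeu sum, with means of 45.3 TPM in GMPs, 19.5 in preNeu cells and 41.7 in matNeu cells. Its change from GMPs to matNeu cells was −0.10 (adjusted p = 0.755, limma). The T and NK cell list was carried by *Nkg7*, at 457 to 610 TPM in GMPs and 1.09 to 3.05 in matNeu cells, with *Cd3e* at 0 in all 3 GMP libraries. Erythroid markers summed to at most 7.92 TPM in any library and megakaryocyte markers to 35.4 to 49.6 TPM in GMPs and at most 7.93 later.

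Across the 9 libraries, the pair of members with the highest Pearson's r of log2(TPM + 1) was *Cebpa* and *Cebpz* (0.938), and *Cebpe* and *Cebpg* had −0.854. These are descriptions over libraries that fall into 3 stages.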
